A study of Mus musculus with 10 samples.

Results

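A set of 37 mouse genes of the endoplasmic reticulum (ER) and its stress response was followed in sorted cells of normal lung and of lung metastases. The genes were taken by name: 12 folding chaperones and cochaperones, 4 disulfide isomerases, 3 genes of translocation into the ER, 6 of ER-associated degradation, 3 stress sensors, 4 transcription factors and 5 targets of the transcription factor ATF4. All 37 were among the 24538 genes of the count table, and 35 were among the 11823 genes with enough counts to be tested. Atf5 and Trib3 reached the count minimum in too few libraries and are described by their counts.

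Live cells that carried CD31, an adhesion molecule of endothelial cells, and lacked CD45, a surface protein of leukocytes, were sorted from wild type C57BL6/J mice with a labelled age of 8 to 10 weeks. There were 5 RNA-seq libraries from normal lung and 5 from dissected metastases. For the metastases, cells of the mouse mammary tumour line E0771-LG had been injected into the tail vein of females of 6 to 8 weeks, and lesions smaller than 1 mm were cut out and pooled over 2 to 4 mice per sample. Both tissues were digested with Liberase enzymes in a buffer that held the transcription inhibitors alpha-amanitin and actinomycin D. The labels do not say whether the libraries of a group came from separate animals, so the p-values measure only the spread between these libraries, which may be technical. In bulk libraries of this kind, fewer cells of a type and less RNA per cell cannot be told apart.

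Proteins that enter the ER are folded by chaperones such as BiP, the product of Hspa5, are linked by disulfide isomerases, and are sent back to the cytosol for degradation when folding fails. The membrane sensors IRE1 (Ern1), PERK (Eif2ak3) and ATF6 (Atf6) answer a load of unfolded protein: IRE1 splices the Xbp1 mRNA, cleaved ATF6 enters the nucleus, and PERK phosphorylates eIF2-alpha, which favours translation of Atf4. XBP1 and ATF6 act on promoters of chaperone genes through the ER stress response element (ERSE), while ATF4, which other kinases such as GCN2 also feed, acts on genes of amino acid synthesis and of cell death through the C/EBP-ATF response element (CARE). Much of this signalling runs through splicing, cleavage and phosphorylation, which gene counts do not measure.

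Promoters of 32 of the 37 genes were found among RefSeq windows (GRCm38.p6) that run from 250 bases before to 50 bases after the start site of transcription. The ERSE was searched on both strands as CCAAT, 9 bases of any kind, then CCACG. It lay in the windows of 8 of the 32 genes (25.0%), namely Hspa5, Hsp90b1, Calr, Canx, Dnajc3, Creld2, Pdia6 and Syvn1, against 37 of 27025 genes (0.137%) over all windows. The related ERSE-II, ATTGG, 1 base, then CCACG, lay in those of Dnajb11 and Herpud1 (6.25%, against 0.0444% of all genes). The CARE, TGATG, 1 base, then AA, lay in those of Herpud1, Trib3, Chac1 and Asns (12.5%, against 4.51%). UPRE (TGACGTGG) and CRE (TGACGTCA) were found in none of the 32 windows, against 0.714% and 2.03% of all genes. The motifs do not overlap each other in these windows. A match describes these letters and is not evidence of binding. These elements are known from chaperone genes and ATF4 targets, so their higher shares in genes taken by name are not an independent finding. The stretches below are shown because they carry the element in the 4 of the 8 ERSE genes that edgeR called higher in metastases (Hspa5, Hsp90b1, Canx and Pdia6), in 1 of the 4 that it did not call (Dnajc3; the others are Calr, Creld2 and Syvn1), and, for the CARE, in a gene that rose (Asns) beside 2 with negative fold changes (Chac1 and Herpud1). Neither of these 2 was called by edgeR. Trib3, the remaining CARE gene, is not shown. It had too few counts for the main test, and with no filter on low counts its fold change was positive (log2 6.83, edgeR adjusted p = 0.00885). Over all tested genes 12.0% were called higher. Pdia3, Edem1, Asns, Psat1 and Phgdh were also called higher and have no ERSE in their windows. Whether the ERSE goes with a rise was not tested. Capitals mark the 2 parts of each element, and where the element lies on the opposite strand they are its reverse complement.
Hspa5, chr2:34772005-34772063, plus strand, ERSE at -65 to -47 from the start site: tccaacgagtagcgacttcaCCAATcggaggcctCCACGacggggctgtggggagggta
Hsp90b1, chr10:86705513-86705676, minus strand, ERSE at -212 to -194 and, reversed, at -107 to -89: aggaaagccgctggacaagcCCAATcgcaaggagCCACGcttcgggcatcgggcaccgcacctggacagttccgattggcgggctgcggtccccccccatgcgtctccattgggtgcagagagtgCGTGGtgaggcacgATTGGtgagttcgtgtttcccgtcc
Canx, chr11:50325780-50325838, minus strand, ERSE at -145 to -127: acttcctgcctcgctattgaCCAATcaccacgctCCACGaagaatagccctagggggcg
Pdia6, chr12:17266471-17266529, plus strand, ERSE at -98 to -80: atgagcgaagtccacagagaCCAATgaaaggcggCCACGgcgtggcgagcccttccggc
Dnajc3, chr14:118937807-118937865, plus strand, ERSE at -105 to -87: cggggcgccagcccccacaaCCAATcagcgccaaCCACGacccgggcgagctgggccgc
Asns, chr6:7693205-7693252, minus strand, CARE at -23 to -16: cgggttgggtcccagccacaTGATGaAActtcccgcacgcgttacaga
Chac1, chr2:119351029-119351076, plus strand, CARE, reversed, at -193 to -186: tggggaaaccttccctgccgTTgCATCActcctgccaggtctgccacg
Herpud1, chr8:94386297-94386407, plus strand, CARE, reversed, at -112 to -105 and ERSE-II at -52 to -42: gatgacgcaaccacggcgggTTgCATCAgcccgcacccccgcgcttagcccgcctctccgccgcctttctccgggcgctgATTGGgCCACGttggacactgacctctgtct

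Counts assigned to genes came to 41004704 to 79710581 per normal library and 21677429 to 54266459 per metastasis library. The sort gene Pecam1, which encodes CD31, was found in every library, at 1840 to 3922 CPM (counts scaled to a library of 1e6) in normal lung and 146 to 1402 CPM in metastases. Of 19 pan-endothelial markers 16 fell and none rose (edgeR; by unadjusted p none rose either), and the median marker stood at 35.2%, 23.1%, 19.3%, 8.66% and 6.32% of its normal mean in metastasis libraries 1 to 5. Some lists of markers of other cells were more abundant in metastases: the summed level went from 6.29 to 78.7 CPM in normal lung to 351 to 917 CPM for 11 fibroblast markers and from 42.7 to 208 to 281 to 1417 CPM for 10 macrophage markers. Others were not, by their sum. For 15 epithelial and mammary tumour markers it was 10.8 to 755 CPM in normal lung and 24.2 to 171 CPM in metastases. Normal libraries 3 and 5 stood at 755 and 586 CPM, and normal libraries 1, 2 and 4 at 10.81, 29.88 and 29.55 CPM. Of these 15 markers 5 were tested, and 4 of them had positive fold changes. EdgeR called 1 higher and 1 lower, so this sum does not give the direction of single markers. The list holds genes such as Krt8 and Cldn4 together with lung epithelial genes such as Sftpc and Scgb1a1. Its sum therefore does not show tumour markers apart from those of lung. For 9 pericyte and smooth muscle markers the sum was 11.8 to 62.8 CPM in normal lung and 12.6 to 96.7 CPM in metastases. The summed level of 12 proliferation markers was 33.0 to 130 CPM in normal lung and 1939 to 3576 CPM in metastases, and all 12 rose. These changes run alongside every difference given here, and their part in it was not tested.

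The 37 genes together took 0.398% to 0.487% of gene counts in normal lung and 0.817% to 1.33% in metastases. Their summed level was 4599, 4422, 4638, 5205 and 4730 CPM in normal libraries 1 to 5 and 9861, 7147, 10020, 10440 and 9891 CPM in metastasis libraries 1 to 5. The groups did not overlap, and metastasis library 2 was the lowest of its group. Abundant genes weigh most in this sum. Mean levels went from 1183 to 2428 CPM for Hsp90b1, 593.5 to 1482 CPM for Pdia3 and 325 to 1069 CPM for Hspa5. Of the 35 tested genes 10 had negative fold changes. In each metastasis library 17 to 21 of the 37 genes (45.9% to 56.8%) stood above all 5 normal libraries, against 25.8% to 28.3% of all tested genes. Below all 5 stood 4 to 9 of the 37 (10.8% to 24.3%), against 25.9% to 32.1%. For comparison, each normal library had 5 to 12 of the 37 above the other 4 normal libraries (13.5% to 32.4%, against 17.2% to 26.0% of all tested genes). Below the other 4 it had 4 to 12 (10.8% to 32.4%, against 18.1% to 21.3%).

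Of the 35 genes tested, 9 rose in metastases (25.7%) and 0 fell, where a call is an adjusted p under 0.05 in edgeR's quasi-likelihood test, with p-values adjusted by Benjamini and Hochberg's method across every gene tested. Over all 11823 genes 12.0% were called higher and 8.22% lower. The median log2 fold change of the 35 was 1.05, against 0.06 over all genes, and 25 were positive. For 8 of the 35 every metastasis library lay above every normal library (22.9%, against 8.5% of all genes), and for 0 every one lay below (against 6.17%). By unadjusted p 15 were higher and 2, Xbp1 and Chac1, were lower, against 2096 and 1623 of all 11823 genes. DESeq2 called 10 higher, with Manf and Pdia4 added and Asns given no adjusted p, and called Xbp1 and Chac1 lower. Over all genes DESeq2 called 1880 higher and 1322 lower. Limma on the authors' FPKM, which tested 36 of the 37, called 9 higher and Xbp1 lower, against 1360 and 1160 of 11673 genes. Its 9 held 7 of the edgeR calls, without Hsp90b1 and Pdia3, and added Sec61b and Trib3. With libraries scaled to the pan-endothelial markers instead, 31 of the 35 were called higher and 0 lower, but so were 7130 of all genes against 20 lower (1420 and 972 here), as the median of all genes shifted by 2.73 on the log2 scale. The 9 genes that rose were Hspa5, Hsp90b1, Canx, Pdia3, Pdia6, Edem1, Asns, Psat1 and Phgdh.

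**Figure D1:**
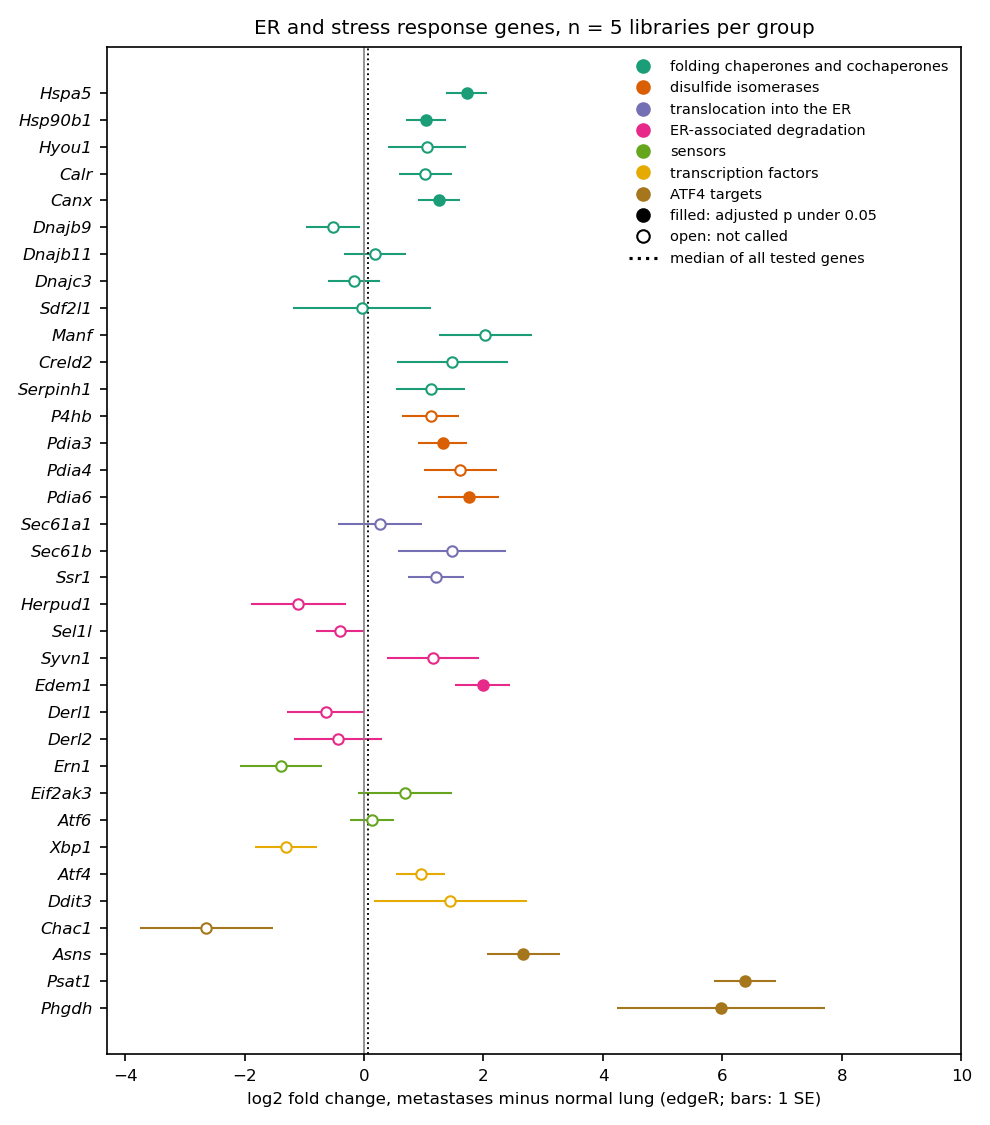
Log2 fold change of the 35 tested genes, metastases minus normal lung (horizontal axis), with 1 standard error from edgeR, coloured by role. Filled points mark the 9 genes with an adjusted p under 0.05, which all lie to the right of 0, and the dotted line is the median of all tested genes at 0.06.

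Among the 12 folding chaperones and cochaperones 3 rose (25.0%, against 12.0% of all genes), Hspa5, Hsp90b1 and Canx, and the median log2 fold change was 1.04. Hspa5 encodes BiP, the main Hsp70 chaperone of the ER lumen, which also holds the sensors inactive (chr2:34771970-34777547, plus strand). It had 332, 286, 238, 493 and 275 CPM in normal libraries 1 to 5 and 1131, 878, 974, 1199 and 1163 CPM in metastasis libraries 1 to 5. Every metastasis library lay above every normal one, and the means were 325 ± 100 and 1069 ± 137 CPM (SD, n = 5 each). The log2 fold change was 1.72 ± 0.34 (SE; edgeR adjusted p = 0.00086), a 3.29-fold rise that was called with each library left out in turn.

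Hsp90b1 encodes GRP94, the Hsp90 chaperone of the ER (chr10:86690209-86705509, minus strand). It was at 854, 953, 1280, 1423 and 1407 CPM in normal libraries 1 to 5 and at 2386, 1547, 2224, 3239 and 2742 CPM in metastasis libraries 1 to 5. The groups did not overlap, though metastasis library 2 stood close to normal libraries 4 and 5. This gave a log2 fold change of 1.04 ± 0.33 (edgeR adjusted p = 0.0269). The call held in 5 of the 10 fits that left out 1 library and was lost without normal library 1, 2 or 3 or metastasis library 4 or 5 (adjusted p up to 0.0945). Limma on FPKM did not call it (adjusted p = 0.0644). Canx encodes calnexin, the membrane lectin that holds glycoproteins during folding (chr11:50293961-50325673, minus strand). Its levels were 176, 277, 314, 305 and 229 CPM in normal libraries and 614, 461, 740, 662 and 629 CPM in metastasis libraries, in the same order. All 5 metastasis libraries were above all 5 normal ones, with a log2 fold change of 1.26 ± 0.34 (edgeR adjusted p = 0.0112) that was called in 10 of 10 fits with 1 library left out.

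Manf encodes a secreted factor of the ER lumen that binds BiP. It had 17.1, 5.14, 8.19, 19.4 and 18.5 CPM in normal libraries 1 to 5 and 81.5, 17.3, 133, 19.5 and 28.3 CPM in metastasis libraries 1 to 5. Metastasis libraries 1 and 3 were high and the other 3 were at or just above the normal range, and the difference did not pass the test (log2 fold change 2.03 ± 0.78, edgeR adjusted p = 0.0676; 1.41 without metastasis library 3), while DESeq2 called it higher (2.19, adjusted p = 0.00898). Calr, which encodes calreticulin, the soluble partner of calnexin, had a log2 fold change of 1.03 ± 0.44 (edgeR adjusted p = 0.108). Of the 10 fits with 1 library left out it was called in 2, without normal library 1 (adjusted p = 0.0484) and without metastasis library 3 (0.0487). Normal library 1 held the highest normal level, 263 CPM, and metastasis library 3 the lowest metastasis level, 150 CPM.

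The other 7 genes of this role did not pass the test. Hyou1, an ER chaperone of the Hsp110 family, and Serpinh1, the collagen chaperone HSP47, had log2 fold changes of 1.05 ± 0.65 and 1.12 ± 0.58. Creld2, an ER stress-inducible protein, ranged from 1.62 CPM in metastasis library 1 to 164 CPM in metastasis library 3, and Sdf2l1, which works with BiP cochaperones, ranged from 0.893 to 41.4 CPM within the metastases. Of the 3 J-domain cochaperones of BiP, Dnajb9 had a log2 fold change of -0.52 ± 0.45, Dnajb11 of 0.19 ± 0.52 and Dnajc3 of -0.17 ± 0.43. Dnajc3 carries the ERSE shown above, as do Hspa5 and Canx, yet its metastasis libraries stood at 561, 128, 193, 116 and 199 CPM beside 182 to 314 CPM in normal lung.

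**Figure D2:**
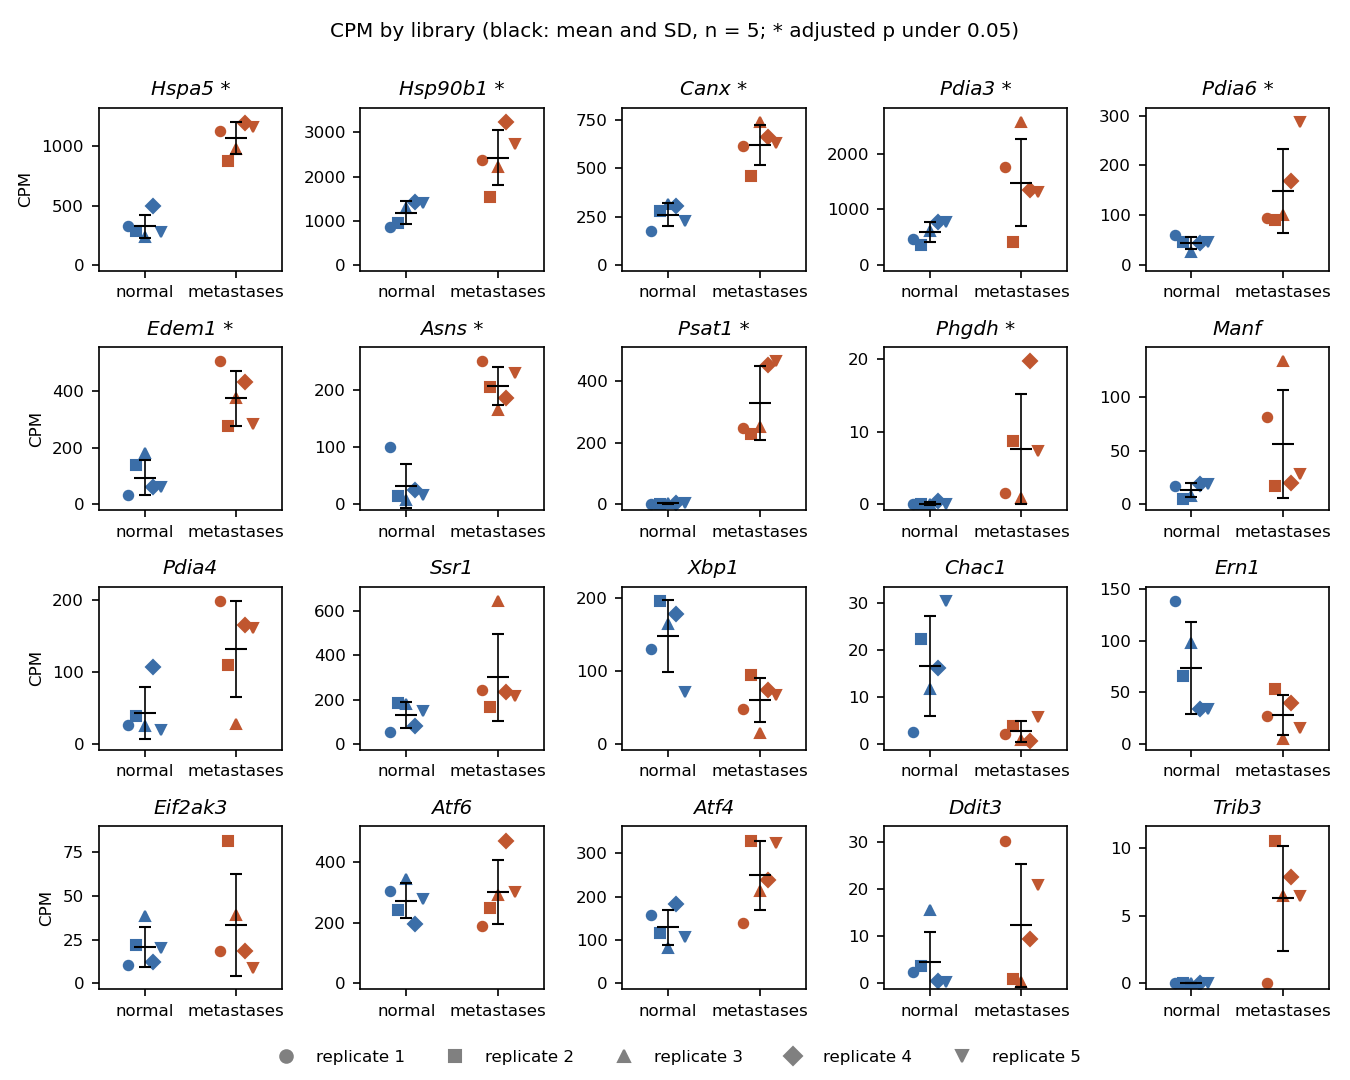
CPM (vertical axes, linear) of 20 genes in each library, normal lung in blue and metastases in orange, 1 marker shape per replicate number, with mean and SD (n = 5) in black. In Hspa5, Canx and Psat1 the groups stand apart, while in Pdia3 metastasis library 2 (408 CPM) falls inside the normal range and in Trib3 metastasis library 1 stays near 0.

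Among the 4 disulfide isomerases, enzymes that form and reshuffle disulfide bonds, 2 rose and 0 fell, against 12.0% and 8.22% of all genes. With only 4 genes a share is a coarse measure. All 4 log2 fold changes were positive, with a median of 1.47. Pdia3 encodes ERp57, which works with calnexin and calreticulin on glycoproteins (chr2:121413775-121438687, plus strand). It stood at 461, 357, 602, 771 and 776 CPM in normal libraries 1 to 5 and at 1771, 408, 2579, 1342 and 1310 CPM in metastasis libraries 1 to 5. Metastasis library 2 lay within the normal range and the other 4 above it. The log2 fold change was 1.32 ± 0.41 (edgeR adjusted p = 0.0234), and the call was lost without normal library 1, 2 or 3 or metastasis library 3 (adjusted p up to 0.0776). Limma on FPKM did not call it (adjusted p = 0.134).

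Pdia6 encodes P5, an isomerase found with BiP (chr12:17266545-17284770, plus strand). Its normal libraries had 59.5, 45.9, 25.2, 43.2 and 46.3 CPM and its metastasis libraries 94.0, 90.2, 101, 169 and 287 CPM, in order. The groups did not overlap, with libraries 4 and 5 the highest of the metastases, which are also those with the lowest pan-endothelial levels. Pdia6 had a log2 fold change of 1.75 ± 0.52 (edgeR adjusted p = 0.0173), which was 1.36 (adjusted p = 0.104) without metastasis library 5 and 1.57 (0.0523) without normal library 3. Pdia4, which encodes ERp72, had 25.9, 38.5, 25.2, 107 and 18.9 CPM in normal libraries 1 to 5 and 198, 109, 27.0, 165 and 160 CPM in metastasis libraries 1 to 5. Normal library 4 was high and metastasis library 3 low, so the groups overlapped (log2 fold change 1.61 ± 0.61, edgeR adjusted p = 0.0645; DESeq2 adjusted p = 0.0333). It was called without either of these 2 libraries (adjusted p = 0.0176 and 0.0188). P4hb, the isomerase that is also a subunit of collagen prolyl hydroxylase, had a log2 fold change of 1.11 ± 0.47 (edgeR adjusted p = 0.102).

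None of the 3 translocation genes was called by edgeR or DESeq2. By unadjusted p Ssr1 alone was higher, and limma on FPKM called Sec61b alone. Ssr1, a subunit of the translocon-associated protein complex, had 52.7, 185, 182, 83.1 and 150 CPM in normal libraries 1 to 5 and 242, 165, 646, 235 and 215 CPM in metastasis libraries 1 to 5. Metastasis library 3 was far above the rest, and the log2 fold change of 1.20 ± 0.46 (edgeR adjusted p = 0.069) was 0.69 without it. Sec61a1 and Sec61b, the pore and a small subunit of the Sec61 channel, had log2 fold changes of 0.27 ± 0.70 and 1.48 ± 0.91. Sec61a1 was at 3.23 CPM in metastasis library 3 and at 40.5 to 124 CPM in the other metastasis libraries.

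Of the 6 genes of ER-associated degradation 1 rose (16.7%, near the 12.0% of all genes), and the median log2 fold change was -0.42. Edem1 encodes a lectin-like protein that marks misfolded glycoproteins for degradation (chr6:108828641-108859356, plus strand). It had 31.8, 139, 179, 59.9 and 61.0 CPM in normal libraries 1 to 5 and 502, 276, 375, 430 and 284 CPM in metastasis libraries 1 to 5. The groups stood apart, and the log2 fold change of 1.99 ± 0.46 (edgeR adjusted p = 0.00313) was called with each library left out. The other 5 are membrane proteins of retrotranslocation, and none was called: Sel1l was at -0.40 ± 0.40, Derl1 at -0.64 ± 0.64, Derl2 at -0.44 ± 0.73 and Herpud1 at -1.10 ± 0.80 on the log2 scale. Syvn1, the ubiquitin ligase HRD1 of this complex, was at 1.16 ± 0.77 on that scale, with 152 CPM in metastasis library 5 and 9.03 to 59.4 CPM in the other metastasis libraries. None of the 6 was lower by unadjusted p, nor by DESeq2 or limma. Herpud1 had 44.5, 65.9, 22.0, 35.5 and 17.6 CPM in normal libraries and 2.74, 16.8, 40.3, 14.8 and 11.8 CPM in metastasis libraries, so that metastasis library 3 alone lay well within the normal range.

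The 3 sensors were not called in either direction, by edgeR with or without adjustment, DESeq2 or limma. Ern1, which encodes IRE1, had 138, 65.4, 97.3, 34.2 and 33.8 CPM in normal libraries 1 to 5 and 27.2, 53.5, 4.71, 39.7 and 15.2 CPM in metastasis libraries 1 to 5. The groups overlapped through normal libraries 4 and 5 (log2 fold change -1.39 ± 0.69, edgeR adjusted p = 0.171). Eif2ak3, which encodes PERK, had 10.7, 22.3, 38.8, 12.1 and 20.3 CPM in normal lung and 18.4, 81.8, 39.2, 18.5 and 9.13 CPM in metastases. Metastasis library 2 was high and the rest covered the normal range (0.68 ± 0.79, edgeR adjusted p = 0.609). Atf6 was at 304, 243, 345, 195 and 280 CPM in normal libraries and at 190, 249, 292, 472 and 303 CPM in metastasis libraries, so that all normal libraries lay between the lowest and the highest metastasis library (0.14 ± 0.37, edgeR adjusted p = 0.838).

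Of the transcription factors, Xbp1, the factor whose mRNA IRE1 splices, had a negative fold change. Its levels were 130, 196, 164, 178 and 71.2 CPM in normal libraries 1 to 5 and 48.1, 93.9, 14.7, 74.4 and 67.6 CPM in metastasis libraries 1 to 5. Only normal library 5 reached into the metastasis range. The log2 fold change was -1.31 ± 0.52 (edgeR adjusted p = 0.0817), while DESeq2 called it lower (adjusted p = 0.0467), as limma on FPKM did. With the pan-endothelial scaling Xbp1 and Ern1 stood at 1.57 and 1.45, a change of sign shared by many genes, since all genes moved by 2.73 at the median. Counts per gene do not separate the spliced from the unspliced Xbp1 mRNA.

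Atf4, whose product drives the amino acid genes given next, had 158, 116, 81.8, 184 and 106 CPM in normal libraries 1 to 5 and 139, 329, 213, 239 and 324 CPM in metastasis libraries 1 to 5. Metastasis library 1 lay within the normal range and the other 4 above it, a difference that did not pass the test (log2 fold change 0.95 ± 0.41, edgeR adjusted p = 0.109). Ddit3, which encodes the pro-apoptotic factor CHOP, was scattered in both groups. It had 2.34, 3.75, 15.7, 0.574 and 0.378 CPM in normal lung and 30.4, 1.04, 0.248, 9.41 and 20.9 CPM in metastases (1.45 ± 1.29, edgeR adjusted p = 0.486). Atf5, a relative of Atf4, had 13, 8, 1, 0 and 1 counts in normal libraries and 285, 114, 7, 2 and 61 counts in metastasis libraries, and with no filter on low counts its log2 fold change was 5.24 ± 2.10 (edgeR adjusted p = 0.0656). For Xbp1, Atf4 and Ddit3 together edgeR made 0 calls, by unadjusted p Atf4 was higher and Xbp1 lower, and DESeq2 called only Xbp1.

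Psat1 and Phgdh, both ATF4 targets, had the largest fold changes of the 35 tested genes. Of the 4 ATF4 targets tested, 3 rose (75.0%, against 12.0% of all genes), with a median log2 fold change of 4.32, and Chac1 had a negative one. Psat1 encodes an enzyme of serine synthesis (chr19:15904678-15947337, minus strand). It had 2.83, 2.76, 3.65, 4.90 and 5.56 CPM in normal libraries 1 to 5 and 246, 228, 249, 452 and 462 CPM in metastasis libraries 1 to 5. Every normal library was under 6 CPM and every metastasis library over 200 CPM. This was an 83.1-fold rise, with a log2 fold change of 6.38 ± 0.53 (edgeR adjusted p = 1.05e-08) that was between 6.20 and 6.50 with each library left out.

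Phgdh encodes the enzyme of the first step of serine synthesis, ahead of Psat1 (chr3:98313170-98339990, minus strand), and was low in normal lung. Its counts were 2, 0, 1, 20 and 1 in normal libraries 1 to 5 and 46, 568, 18, 677 and 209 in metastasis libraries 1 to 5. In CPM these are at most 0.522 in normal lung and 0.893 to 19.7 in metastases, with no overlap. The log2 fold change was 5.98 ± 1.74 (edgeR adjusted p = 0.0162), and 8.38 without normal library 4, which held 20 of the 24 normal counts. Asns encodes asparagine synthetase (chr6:7675169-7693254, minus strand). It had 100.0, 14.1, 7.29, 25.2 and 16.6 CPM in normal libraries and 250.1, 205, 165, 186 and 230 CPM in metastasis libraries, in order. Normal library 1 stood above the other normal libraries but below all metastasis libraries. Asns had a log2 fold change of 2.67 ± 0.61 (edgeR adjusted p = 0.00271), and 3.69 without that library. DESeq2 gave Asns no adjusted p.

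Chac1 encodes an enzyme that breaks down glutathione. Its levels were 2.46, 22.2, 11.7, 16.1 and 30.4 CPM in normal libraries 1 to 5 and 2.2, 3.90, 0.893, 0.581 and 5.71 CPM in metastasis libraries 1 to 5. Normal library 1 was as low as the metastases, and the log2 fold change was -2.64 ± 1.11 (edgeR adjusted p = 0.0976; DESeq2 adjusted p = 0.00891). Trib3, a pseudokinase that ATF4 and CHOP induce, had 4, 5, 2, 1 and 2 counts in normal libraries and 2, 690, 130, 272 and 184 counts in metastasis libraries. Metastasis library 1 was as low as normal lung and the other 4 were far above it. With no filter on low counts its log2 fold change was 6.83 ± 1.95 (edgeR adjusted p = 0.00885). Asns and Chac1 both carry the CARE in the windows shown above and had opposite signs, though edgeR called only Asns. Of the other CARE genes, Trib3 had a positive fold change and Herpud1 a negative one that was not called.

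**Figure D3:**
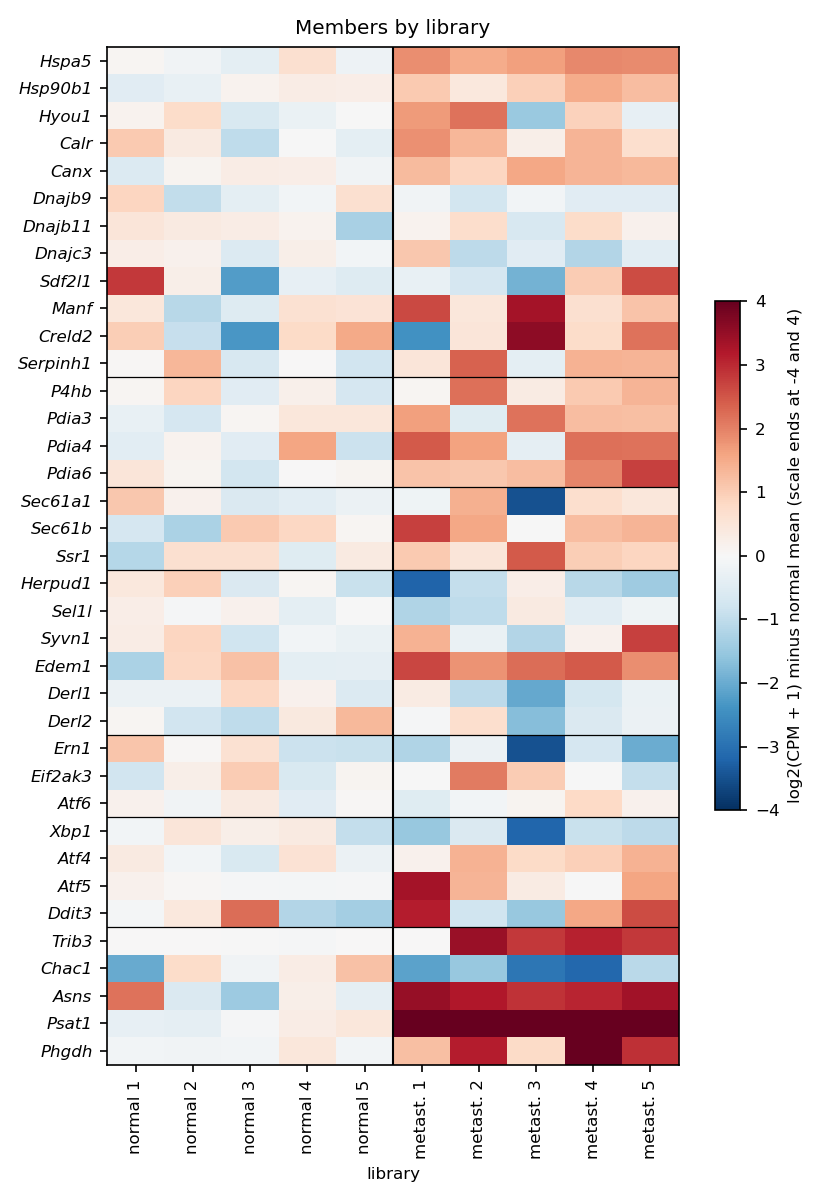
Each row is 1 of the 37 genes, grouped by role, and each column 1 library; colour is log2(CPM + 1) minus the mean of the 5 normal libraries, with the scale ending at -4 and 4. Hspa5, Canx, Edem1, Asns and Psat1 are red in all 5 metastasis libraries, while columns differ for Creld2, Sec61a1 and Syvn1, where metastasis library 3 or 5 stands apart.

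On the scale per transcript length (FPKM, the authors' values), Hsp90b1 was the most abundant of the 37 genes in both groups, at 396 ± 99.2 in normal lung and 725 ± 187 (SD, 5 libraries each) in the metastases. Pdia3 came next in both, at 208 ± 63.9 and 484 ± 312 FPKM. In normal lung Atf4 (134 ± 31.8 FPKM) and Hspa5 (131 ± 46.4 FPKM) followed and did not differ beyond their spread. In metastases Hspa5 (396 ± 65.9 FPKM) had rank 3 and Atf4 (245 ± 50.9 FPKM) rank 4. Psat1 moved from rank 33 (2.28 ± 0.91 FPKM) to rank 6 (172 ± 62.2 FPKM) and Asns from rank 24 to rank 7, while Xbp1 went from rank 6 (82.9 ± 28.0 FPKM) to rank 21 (31.7 ± 11.9 FPKM). Neighbours in these orders mostly lie within each other's SD.

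The 9 genes that rose differed in how evenly they did so. Across the 5 metastasis libraries the coefficient of variation was 12.8% for Hspa5, 16.3% for Asns, 16.4% for Canx and 25.8% for Edem1, against 53.2% for Pdia3 and 98.9% for Phgdh. The highest metastasis library was 1.37 times the lowest for Hspa5 and 6.32 times for Pdia3. Metastasis library 3 was the lowest of its group for 16 of the 37 genes and the highest for 8.

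Libraries 1 and 2 of each group and libraries 3 to 5 were also compared apart, though the labels name no batch. In libraries 1 and 2 alone only Psat1 of 36 tested genes was called higher, where 3.87% of all genes were, and 0 were called lower, where 1.6% were. The values there were still 1.72 for Hspa5 (edgeR adjusted p = 0.0863) and 2.2 for Edem1 (0.0758). In libraries 3 to 5 alone 8 of 36 were called higher, against 9.29% of all genes, and 0 lower, against 6.39%. Those 8 were Hspa5, Canx, Pdia3, Pdia6, Edem1, Trib3, Asns and Psat1. Leaving out metastasis libraries 4 and 5, which had the lowest pan-endothelial levels, 6 of 36 were called higher, against 9.08% of all genes, and 0 lower, against 4.21%. The 6 were Hspa5, Pdia3, Edem1, Atf5, Asns and Psat1, and Canx was then at 1.18 (edgeR adjusted p = 0.0585) and Pdia6 at 1.08 (0.298).

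Other genes of the same pathways were followed in 6 lists of 91 genes, of which 81 were tested. In all 13 rose (16.0%, against 12.0% of all genes) and 2 fell (2.47%, against 8.22%), with a median log2 fold change of 0.38, below the 1.05 of the 35 genes described above and above the 0.06 of all genes. Of 19 other genes of ER folding and oxidation none was called higher by edgeR or DESeq2 (by unadjusted p Ero1l was, and limma on FPKM called 1), and Pdia5, an isomerase, fell (log2 fold change -2.63 ± 0.90, edgeR adjusted p = 0.0405, called in 5 of 10 fits with 1 library left out). Of 11 tested genes of collagen folding and modification 2 rose (18.2%), the prolyl isomerase Fkbp10 (4.20 ± 1.20, adjusted p = 0.0146) and the prolyl hydroxylase subunit P4ha3 (3.56 ± 1.11, adjusted p = 0.0251), and Fkbp14 fell (9.09%; -5.95 ± 1.63, adjusted p = 0.0109). Fkbp14 averaged under 10 CPM in both groups. Its call held with each library left out and with DESeq2. Limma called it on log2(FPKM + 0.1) (-3.34, adjusted p = 0.0306) but not on log2(FPKM + 1) (-1.31, adjusted p = 0.107). Fkbp10 was at 3.29 (0.0748) without metastasis library 2. P4ha3 was at 2.49 (0.161) without metastasis library 4 and also lost its call without normal library 1, 4 or 5 (adjusted p = 0.0587, 0.0561 and 0.0562).

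Of 14 other translocation genes 3 rose (21.4%, against 12.0% of all genes) and 0 fell (by unadjusted p Sec62 was lower, while DESeq2 and limma called none lower). Those that rose were the signal peptidase subunit Spcs3 (2.04 ± 0.45, edgeR adjusted p = 0.00213), the signal recognition particle receptor Srpr (1.78 ± 0.46, adjusted p = 0.00762) and Ssr3, a partner of Ssr1 (1.30 ± 0.35, adjusted p = 0.00927). Each was called with any 1 library left out. Of 13 other degradation genes 1 was called higher (7.69%, against 12.0% of all genes). This was Vcp, the ATPase that pulls proteins from the ER membrane (1.74 ± 0.60, edgeR adjusted p = 0.0425). Vcp was at 0.57 (0.501) without metastasis library 3, where it stood at 482 CPM against 52.7 to 78.3 CPM in the other metastasis libraries.

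Among 17 other stress response regulators 3 rose (17.6%, against 12.0% of all genes): Eif2s1, which encodes the eIF2-alpha that PERK phosphorylates (3.11 ± 0.44, edgeR adjusted p = 2.24e-05), the stress protein gene Nupr1 (6.50 ± 1.51, adjusted p = 0.00319) and Eif2ak2, another eIF2-alpha kinase (1.42 ± 0.43, adjusted p = 0.0211). Eif2ak2 was called in 6 of 10 fits with 1 library left out. Of 15 other ATF4 targets 7 were tested and 4 rose (57.1% of the 7, against 12.0% of all genes), Mthfd2 (5.16 ± 1.09), Aldh18a1 (4.75 ± 0.86), Shmt2 (4.28 ± 0.82) and Gpt2 (4.34 ± 1.13), with a median of 4.28 over the 7. Mthfd2 and Shmt2 encode mitochondrial enzymes of serine and folate metabolism, Aldh18a1 an enzyme of proline synthesis and Gpt2 a transaminase of alanine. Gpt2 was at 3.31 (edgeR adjusted p = 0.0675) without metastasis library 4. The 8 of the 15 that were not tested had too few counts.

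Chaperones outside the ER were set beside those inside it. Of 14 cytosolic and mitochondrial heat shock genes 8 rose and 0 fell (57.1% higher, against 12.0% higher and 8.22% lower of all genes), with a median log2 fold change of 1.91. By unadjusted p 10 were higher and none lower, against 2096 and 1623 of 11823 genes. DESeq2 and limma each called 10 higher and none lower. Over all genes DESeq2 called 1880 higher and 1322 lower, and limma 1360 and 1160. Hsp90ab1, the cytosolic Hsp90, went from 620 ± 65.7 to 1829 ± 549 CPM (1.56 ± 0.33, edgeR adjusted p = 0.00158), and Hspa4, an Hsp110 relative, from 200.0 ± 15.5 to 952 ± 228 CPM (2.25 ± 0.34, adjusted p = 5.97e-05). Of 11 genes that tissue digestion is known to induce 0 rose and 3 fell (27.3%, against 8.22% of all genes). Their summed level was 1550 to 4079 CPM in normal lung and 875 to 2381 CPM in metastases. The digestion buffer held transcription inhibitors, which limits what these genes can show, and a part of digestion in the differences was not tested.

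**Figure D4:**
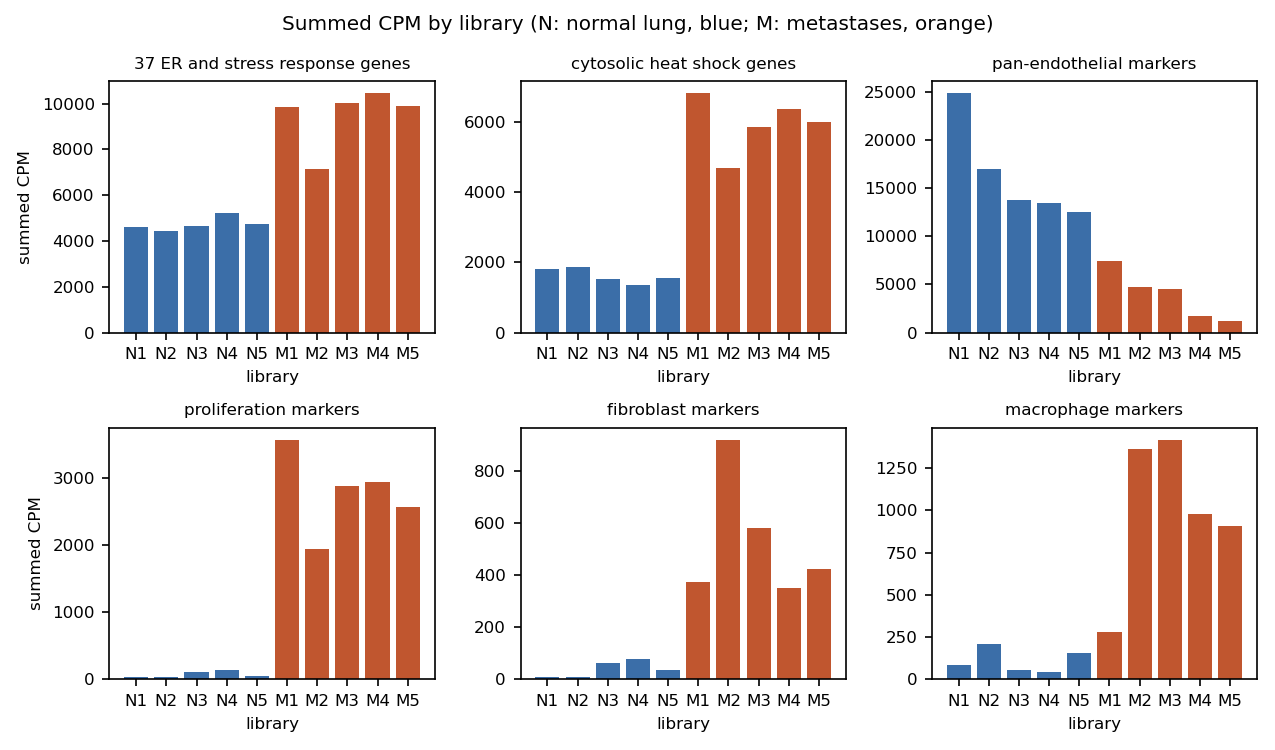
Summed CPM (vertical axes from 0) in each library, N for normal lung in blue and M for metastases in orange, of the 37 genes, the cytosolic heat shock genes, and 4 marker lists. The 37 genes sum to 4422 to 5205 CPM in normal lung and 7147 to 10440 CPM in metastases, while the pan-endothelial sum falls from 24820 CPM in N1 to 1155 CPM in M5.

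Markers of plasma cells, which carry much ER, were also measured. The 7 markers summed to 304 to 915 CPM in normal lung and 53.1 to 231 CPM in metastases. Of the 2 tested, Sdc1 rose and Prdm1 fell, and Jchain, Mzb1 and Tnfrsf17 were at 0 counts in all 10 libraries. The leukocyte gene Ptprc, which encodes the CD45 that the sort left out, went from 17.8 ± 7.31 to 121 ± 25.6 CPM. Among the 11 fibroblast markers, of cells that secrete much collagen, Col3a1 went from 10.4 ± 10.9 to 152 ± 60.7 CPM, and their sum was highest in metastasis library 2, where the summed level of the 37 genes was the lowest of the metastases. Serpinh1 and P4hb, which serve collagen folding, were highest in that library, at 260 and 444 CPM. Whether these cells account for a share of the differences was not tested.

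Exons of 10 of the 37 genes overlap those of another gene model in the count table, among them Hsp90b1, Pdia3 and Pdia6 of the genes that rose. For Ddit3 the only such model carries the same symbol. Whether read strand was used in counting is not given in the sources. The counts of these genes may therefore lack reads set aside as ambiguous or, except for Ddit3, hold reads of the neighbour.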

How the data were processed

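The authors deposited raw whole-number counts per gene for each library, with HTSeq summary categories, and a table of FPKM (fragments scaled to transcript length and library size) for 24460 genes. Per the submitters' processing notes, the tools were HTSeq 0.6.1, DESeq2 1.6.3, TopHat2 2.0.13 and Cufflinks 2.2.1, and the builds mm10 and GRCm38. For the annotation and the strand setting: not given in the sources used here. Records outside genes were 55.4% to 64.7% of all records in normal libraries and 57.9% to 73.7% in metastases, and stayed out of library sizes. The files hold 148 to 258 M count records per library, more than the 60 to 80 M reads per sample that the labels state. The reason is unknown, so counts may not be in units of single reads. Libraries came from an amplification kit, so counts are not independent molecules.

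Of 24538 genes 7652 were at 0 in every library, and filterByExpr at its defaults left 11823. The 5 normal and 5 metastasis libraries were compared with edgeR 4.0.16 (R 4.3.3; TMM scaling, robust quasi-likelihood test, two-sided, no covariate), p-values adjusted by Benjamini and Hochberg's method, and a call at an adjusted p under 0.05. CPM are counts scaled to 1e6 on TMM-scaled libraries. A positive log2 fold change means more in metastases. Its standard error is its size divided by the root of edgeR's F. The fit was tested on simulated data. The common biological coefficient of variation was 1.01, which limits what 5 libraries per group can show.

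The genes and lists were chosen with earlier results of these data known. Values per library are given for the genes called, those with an adjusted p between 0.05 and 0.1, the sensors and the transcription factors, and for Trib3, Herpud1 and Dnajc3, chosen after their values were seen. Of each pathway list the 2 largest called changes each way that reach 10 CPM in either group are named. Fkbp14, Ssr3, Eif2ak2, Shmt2 and Gpt2 complete counts and were added after their values were seen. Of marker lists the genes of highest CPM are named. Other settings were DESeq2 1.42.0, other scalings and filters, limma 3.58.1 on log2(FPKM + 1) and log2(FPKM + 0.1), the replicate number as a block, sets of libraries, and leaving out each library. Positions are from GENCODE M21 (GRCm38) and promoters from RefSeq (GRCm38.p6). Figures were drawn with matplotlib 3.10.9.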

Additional observations from a re-analysis of the deposited data

Results flagged for a closer look

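Each of the 35 tested genes was checked in each group for a library that stands apart from the other 4, 70 checks in all, and 3 did so. Chance alone flags about 1 in 20 such groups. Dnajb11 stood at 27.9 CPM in normal library 5, against 78.4 to 98.8 CPM in the other normal libraries. Phgdh stood at 0.522 CPM in normal library 4, against 0 to 0.0306 CPM in the others. Ssr1 stood at 646 CPM in metastasis library 3, against 165 to 242 CPM in the other metastasis libraries.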

How the results depend on the processing

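The count of genes called higher was 9 and was between 7 and 11 with each library left out. Over all genes 1302 to 1440 were called higher and 792 to 1114 lower with each library left out. Of the 9 genes 6 to 9 were called in each of these fits, and the filter then let in Trib3 or Atf5 in some of them (35 to 37 genes tested). The count was 14 with library totals (median log2 fold change 1.32) and 31 with pan-endothelial scaling (3.85). It was 4 at a threshold of 0.01 and 1 in libraries 1 and 2 alone. Over all genes 487 were called higher in libraries 1 and 2 alone, and the number at 0.01 is not given here. Library totals shifted the median of all genes by 0.26 and pan-endothelial scaling by 2.73, and the median of the genes minus that of all genes was 0.83 to 1.09 over the 24 other settings. The split over all genes was 1420 higher and 972 lower in the fit described, 1730 and 828 with library totals, and 7130 and 20 with pan-endothelial scaling. Genes called lower were 2 with DESeq2 and 1 in each of the 3 FPKM settings, against 0.

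Other pathway genes called higher were 62 with pan-endothelial scaling and 4 in libraries 1 and 2 alone, against 13. Those called lower were 2. They were 1 with library totals, the stricter filter, both FPKM settings with pseudocount 1, and without metastasis libraries 4 and 5. They were 0 with pan-endothelial scaling, a threshold of 0.01, libraries 1 and 2 alone and libraries 3 to 5 alone, and 1 to 2 with each library left out. The causes were not tested.

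Deviations of same-numbered libraries were at most weakly correlated (0.0007 to 0.142). Normal and metastasis libraries of different number gave -0.117 to 0.095. The numbers are therefore not taken as pairs. With the replicate number as a block, 12 genes were called higher, which adds Calr, Pdia4 and Ssr1. Of the other pathway genes 4 were called lower. Over all genes 1435 were called higher and 1180 lower with this block. Sdf2l1 was then at 0.38 and Sec61a1 at -0.15.

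Signs changed mostly for genes that were not called, with Pdia5 and Pecam1, both called lower, as exceptions under pan-endothelial scaling. Sdf2l1 (-0.04) was at 0.072 with DESeq2 and with RLE scaling, 0.16 and 0.18 in the FPKM settings, 0.47 with library totals, 0.015 with the stricter filter, 0.78 with a term for libraries 1 and 2, 2.62 in libraries 3 to 5 alone, and -1.19 to 1.61 with each library left out. Sec61a1 was at -0.018 with FPKM and pseudocount 0.1 and from -0.14 to 0.62 with each library left out. Such ranges also crossed 0 for Atf6 (-0.082 to 0.241), Dnajc3 (-0.784 to 0.009), Derl2 (-0.789 to 0.006) and Dnajb11 (-0.061 to 0.33). Without metastasis libraries 4 and 5 Atf6 was at -0.21 and Dnajc3 at 0.10. In libraries 1 and 2 alone Atf6 was at -0.30, Creld2 at -0.68, Derl1 at 0.054, Derl2 at 0.69 and Dnajc3 at 0.20, and in libraries 3 to 5 alone Eif2ak3 was at -0.11 and Sel1l at 0.005. With pan-endothelial scaling, which moves all genes up together, Chac1 was at 0.13, Derl1 at 2.05, Derl2 at 2.13, Dnajb9 at 2.27, Dnajc3 at 2.33, Ern1 at 1.45, Herpud1 at 1.74, Sdf2l1 at 3.81, Sel1l at 2.49, Xbp1 at 1.57, Pdia5 at 0.75 and Pecam1 at 0.39.

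Depth limits the low genes most: Phgdh, Trib3 and Atf5 rest on 24, 14 and 23 counts over the 5 normal libraries, and the stricter filter left Phgdh out. It also left out Fkbp14 and Nupr1 of the other pathway genes. Pooled lesions of 2 to 4 mice, and a pan-endothelial level that differs between metastasis libraries, bear on every value. Levels of mRNA do not show splicing, cleavage or phosphorylation.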
